A study of Rattus with 18 samples.

Results

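Activins, bone morphogenetic proteins (BMPs) and the secreted proteins that bind them were followed in rat glomeruli over the first 5 days of anti-Thy1 nephritis, through the 8 genes Inhba, Inhbb, Fst, Grem1, Bmp2, Bmp4, Bmp6 and Bmp7. These 8 are among the 23188 genes and transcripts tested, and they have 13 of the 41012 non-control probes on the array. The list was drawn up because Inhba and Grem1 were already known to be high in these samples, so the levels of those genes are given as a description, without a test. The other 6 genes were tested in a fit over all genes.

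The study used rats of the strain labelled SD, weighing 200 g, of which 30 received anti-Thy1 antibody and were killed on days 1 to 5, and 6 received saline and were taken on day 0. The antibody binds the Thy1 antigen on mesangial cells, the contractile support cells of the glomerulus, and injures them. The design text gives 3 glomeruli from each of 6 rats per time point, and each of the 6 time points is represented by 3 arrays, 18 in all. The labels do not say which rats stand behind an array, so the p-values measure the spread between arrays, which may be technical. Saline rats were analysed here on day 0 only, and every comparison with saline is therefore also a comparison with day 0.

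Activins are dimers of the inhibin beta A subunit (Inhba) or the beta B subunit (Inhbb), and they signal through the type II receptors Acvr2a and Acvr2b and the type I receptor Acvr1b to Smad2 and Smad3. BMPs signal through Acvr1, Bmpr1a or Bmpr1b with a type II receptor to Smad1, Smad5 and Smad9, and Bmp7 is known in the kidney for its role in nephron formation and in the adult tubule and podocyte. Follistatin (Fst) binds activins and keeps them from their receptors, and gremlin (Grem1) binds Bmp2, Bmp4 and Bmp7; gremlin is a developmental gene that is known to reappear in diseased kidneys.

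What each value reports is the amount of RNA bound by a 60-base DNA probe, and 1 or both probes of each gene are given so that their targets can be placed; for Grem1 this is the dimmer probe, while its levels rest on the brighter probe, whose sequence is not printed. They are given as the array files hold them, with their rat genome (rn4) positions from the same files; capitals mark the longest run of bases that a probe shares with the probe of another gene on the array. For Inhbb the 60 bases lie over a span of 2632 bases, and all 8 other printed positions are 60 bases long. The position given for the brighter Grem1 probe spans only 42 bases, so its 60 bases are not fully placed. No rn4 annotation was used here, so exons and untranslated regions are not assigned.
Inhba, chr17:57244604-57244663, minus strand: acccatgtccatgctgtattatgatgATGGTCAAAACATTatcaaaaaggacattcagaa
Inhbb, chr13:32173603-32176234, minus strand: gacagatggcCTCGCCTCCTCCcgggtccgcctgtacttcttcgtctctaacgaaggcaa
Fst, brighter probe, chr2:46543227-46543286, minus strand: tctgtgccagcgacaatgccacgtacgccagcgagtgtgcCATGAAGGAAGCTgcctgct
Fst, other probe, chr2:46543299-46543358, minus strand: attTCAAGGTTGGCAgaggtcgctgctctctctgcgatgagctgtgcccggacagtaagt
Grem1, other probe, chr3:99600383-99600442, minus strand: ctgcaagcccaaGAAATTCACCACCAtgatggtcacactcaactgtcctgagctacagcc
Bmp2, brighter probe, chr3:121381127-121381186, plus strand: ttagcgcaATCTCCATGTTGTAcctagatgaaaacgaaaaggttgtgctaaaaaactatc
Bmp4, chr15:22283916-22283975, minus strand: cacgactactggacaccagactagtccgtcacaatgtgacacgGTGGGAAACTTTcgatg
Bmp6, chr17:32380203-32380262, minus strand: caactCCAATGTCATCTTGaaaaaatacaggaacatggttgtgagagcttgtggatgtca
Bmp7, chr3:163727379-163727438, minus strand: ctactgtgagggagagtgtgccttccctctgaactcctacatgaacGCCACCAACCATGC
The longest run shared with another gene's probe was 14 bases, found in the probes of Inhba, Grem1, Bmp2, Bmp6 and Bmp7. The other gene was Bmp8a for the Bmp7 probe, Krt77 for Bmp6, Usp7 for Bmp4 and Idh3b for the other Fst probe. The 2 Fst probes lie 12 bases apart, so they read neighbouring stretches of the same transcript.

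Levels are log2 probe intensities minus the 75th percentile of the array, so that 0 is that percentile and a difference of 1 is a doubling; levels of different probes are not compared. A gene was read from its brightest probe. That percentile was 251.9 to 452.4 intensity units on the arrays of antibody-treated rats and 180.7 to 229.2 on the saline arrays, and 55.2% to 69.6% of probes were well above background, with no saturated spot. All 8 genes were well above background on all 3 arrays of every day, and 12 of their 13 probes passed the filter. Each SE is that of the log2 change in the fit, each adjusted p is from limma with Benjamini-Hochberg adjustment over all 23188 genes, and a gene is called where it is under 0.05.

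Some arrays stood apart from the others of their day. Saline replicate 4 had correlations of 0.9525 and 0.9587 with the other saline arrays across probes, against 0.9877 between those other arrays. Over the 13 macrophage and monocyte markers the mean log2 level was -0.18 on day 4 replicate 1, against 1.92 and 1.78 on the other day 4 arrays, and 0.29 and 0.01 on day 5 replicates 2 and 4, against 2.61 on replicate 5; the saline arrays had -0.54 to 0.39. Thy1 RNA was lower on day 1 than on day 0, with a log2 change of -3.25 (9.51-fold, SE 0.59, adjusted p = 0.0026). Markers of podocytes (14 of 14 measured), glomerular endothelium (12 of 12) and also proximal tubule (11 of 11) were present on all arrays, so the material was not glomerular cells alone. The scan days in the array files put days 2 and 4 together and apart from the other 4 time points, and for days 2 and 4 the scan day and the change against saline cannot be told apart. Each array holds RNA of many cell types, and a larger share of a cell type and more RNA per cell cannot be told apart.

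Among the 6 members with a test, 3 rose and 1 fell on day 1, where 40% of all genes were called, 19.2% as higher and 20.7% as lower. On day 2, 2 rose and 2 fell (of all genes 45.9% called, 20.8% higher and 25.1% lower), and on day 3, 3 rose and 1 fell (47.7% called, 21.7% higher and 26% lower). On day 4, 2 rose and 1 fell (52.3% called, 25.6% higher and 26.7% lower), and on day 5 Bmp4 alone was called, as higher (44.3% called, 20.9% higher and 23.4% lower). The called counts of the members, 4, 4, 4, 3 and 1 of 6, thus stand beside a background in which 40% to 52.3% of all genes were called. The median log2 change over all 8 members was 0.94, 1.02, 0.91, 1.12 and 1.08 on days 1 to 5. Over all genes it was 0.06, 0.05, -0.02, 0.05 and 0.06. Inhba and Grem1, chosen for their rise, lift the median of the members, so it does not show a rise of the members. On day 4, where it was highest, the other 6 members had -1.6 (Inhbb), 1.58 (Fst), 1.18 (Bmp2), 1.06 (Bmp4), -0.41 (Bmp6) and -0.49 (Bmp7). With the slide as a fixed block, 0 of the 6 members and 0, 1 and 1 of all genes were called on days 1, 3 and 5 by limma. At an unadjusted p under 0.05 there were 4, 3 and 2 members, beside 7382, 6747 and 4570 of all genes. In that fit days 1, 3 and 5 are linked to day 0 only through the 1 day 1 array on slide 1. The slides of days 2 and 4 are not linked to that of day 0, also not through other days. With the slide as a random block (correlation within slide -0.0291), 3, 4, 4, 4 and 1 members were called on days 1 to 5. Of all genes 9457, 11098, 11383, 12489 and 10854 were called with that block.

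**Figure D1:**
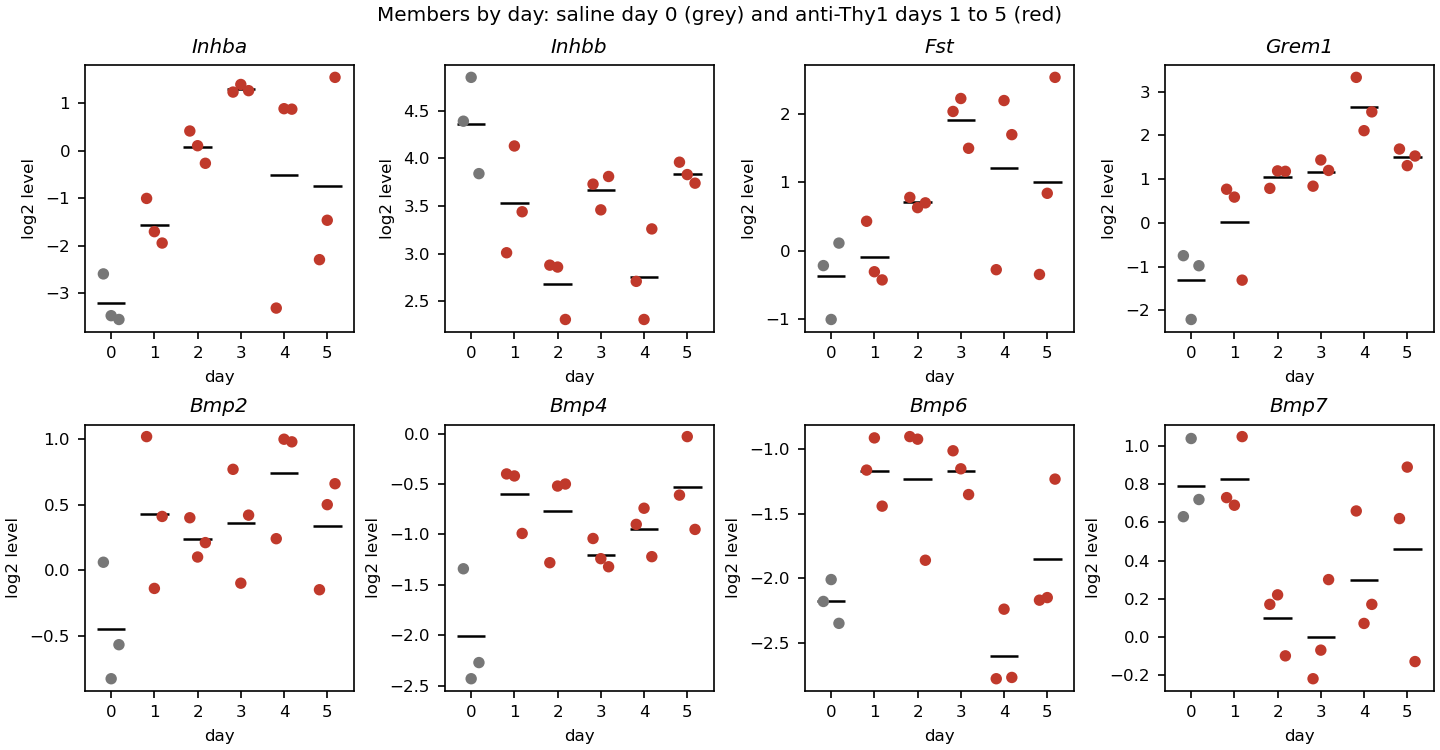
Log2 level (intensity minus the array's 75th percentile) of the 8 genes by day, with 1 point per array and a bar at the mean of the 3 arrays; saline day 0 is grey and anti-Thy1 days 1 to 5 are red. Inhba has its highest mean on day 3 (1.30) and Grem1 on day 4 (2.66), Bmp4 lies above every saline array on all 5 days, and Inhbb is lowest on days 2 and 4.

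The activin beta A subunit gene Inhba was higher than in saline glomeruli on each day by its mean, with the highest level on day 3. Its log2 level was -2.59, -3.47 and -3.55 on saline day 0, -1, -1.70 and -1.94 on day 1, and 0.42, 0.11 and -0.26 on day 2. It was 1.24, 1.40 and 1.27 on day 3, -3.31, 0.89 and 0.88 on day 4, and -2.29, -1.46 and 1.55 on day 5. The arrays of days 1, 2, 3 and 5 all lay above the saline arrays, and on day 4 replicate 1 lay among them. The log2 change against day 0 was 1.65, 3.29, 4.51, 2.69 and 2.47 on days 1 to 5 (SE 0.98), or 3.15-, 9.80-, 22.7-, 6.45- and 5.55-fold. A normexp background correction without extreme spots, chosen after seeing the data, gave 0.58, 1.76, 2.87, 1.54 and 1.30. All normexp corrections here add an offset of 50 intensity units, which by construction makes the log2 changes of dim probes smaller.

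The 3 arrays of day 3 lay close together, with a mean ± SD of 1.30 ± 0.09 (n = 3), whereas day 4 had -0.51 ± 2.42 and day 5 had -0.73 ± 2.02 (n = 3 each). Without day 4 replicate 1 the day 4 change of Inhba was 4.09, and without day 5 replicate 5 the day 5 change was 1.33. In the order of its means, day 0, day 1, day 5, day 4, day 2 and day 3, Inhba did not overlap between days 0 and 1 or between days 2 and 3, and the other neighbours overlapped. The arrays on which Inhba was low again, day 4 replicate 1 and day 5 replicates 2 and 4, are those with the low macrophage marker levels given above. The mean log2 level of the 12 measured mesangial markers was lower on them too. It was 0.26 on day 4 replicate 1, against 1.31 and 1.07 on the other day 4 arrays. On day 5 it was 0.48 and 0.49 on replicates 2 and 4, against 1.48 on replicate 5. The part of either cell type in the Inhba level was not tested.

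The beta B subunit gene Inhbb changed the other way. Its log2 level was 4.39, 4.85 and 3.84 on saline day 0, 3.01, 4.13 and 3.44 on day 1, and 2.88, 2.86 and 2.31 on day 2. It was 3.73, 3.46 and 3.81 on day 3, 2.71, 2.31 and 3.26 on day 4, and 3.96, 3.83 and 3.74 on day 5. Days 2, 3 and 4 lay wholly below saline, day 3 by a margin of 0.03 between its highest array and the lowest saline array, and days 1 and 5 overlapped it. Inhbb fell on day 2 by 1.68 on the log2 scale (SE 0.31, adjusted p = 0.0013) and on day 4 by 1.60 (adjusted p = 9e-04). The change was -0.83 on day 1 (adjusted p = 0.044), -0.69 on day 3 (adjusted p = 0.078) and -0.52 on day 5 (adjusted p = 0.18). The day 1 call of Inhbb was kept in 2 of 6 fits that each left out 1 array, and those of days 2 and 4 in 6 of 6. Days 2 and 4 are also the days of the other scan day, with mean log2 levels of 2.68 and 2.76, against 3.53, 3.67 and 3.84 on days 1, 3 and 5. A dimmer probe of Inhbb gave log2 changes of -1.05, -0.49, -0.82, -0.93 and -0.38 on days 1 to 5, the same sign on every day, but did not single out days 2 and 4. A further Inhbb probe was not above background on any of the 18 arrays.

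Fst, whose product follistatin binds activins, rose on day 3 only by the test. Its log2 level was -0.22, -1.01 and 0.11 on saline day 0, 0.43, -0.31 and -0.43 on day 1, and 0.78, 0.63 and 0.70 on day 2. It was 2.04, 2.23 and 1.5 on day 3, -0.28, 2.20 and 1.70 on day 4, and -0.35, 0.84 and 2.54 on day 5. Every array of days 2 and 3 lay above the saline arrays, and days 1, 4 and 5 overlapped them. The log2 change of Fst was 2.29 on day 3 (SE 0.64, adjusted p = 0.0093) and was kept as a call in 6 of 6 fits that left out 1 array. It was 0.27 on day 1 (adjusted p = 0.75), 1.08 on day 2 (adjusted p = 0.18), 1.58 on day 4 (adjusted p = 0.051) and 1.38 on day 5 (adjusted p = 0.092).

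The late days of Fst turned on single arrays. Without day 4 replicate 1 its day 4 change was 2.32 (adjusted p = 0.0063), and without day 5 replicate 2 its day 5 change was 2.06 (adjusted p = 0.022). These are arrays on which Inhba and the macrophage markers were low too. Among the members, Fst was the gene whose profile over the 18 arrays differed least from that of Inhba, with a root mean square difference of 0.92 on the log2 scale after centring, against 1.5 to 2.12 for the other members.

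**Figure D2:**
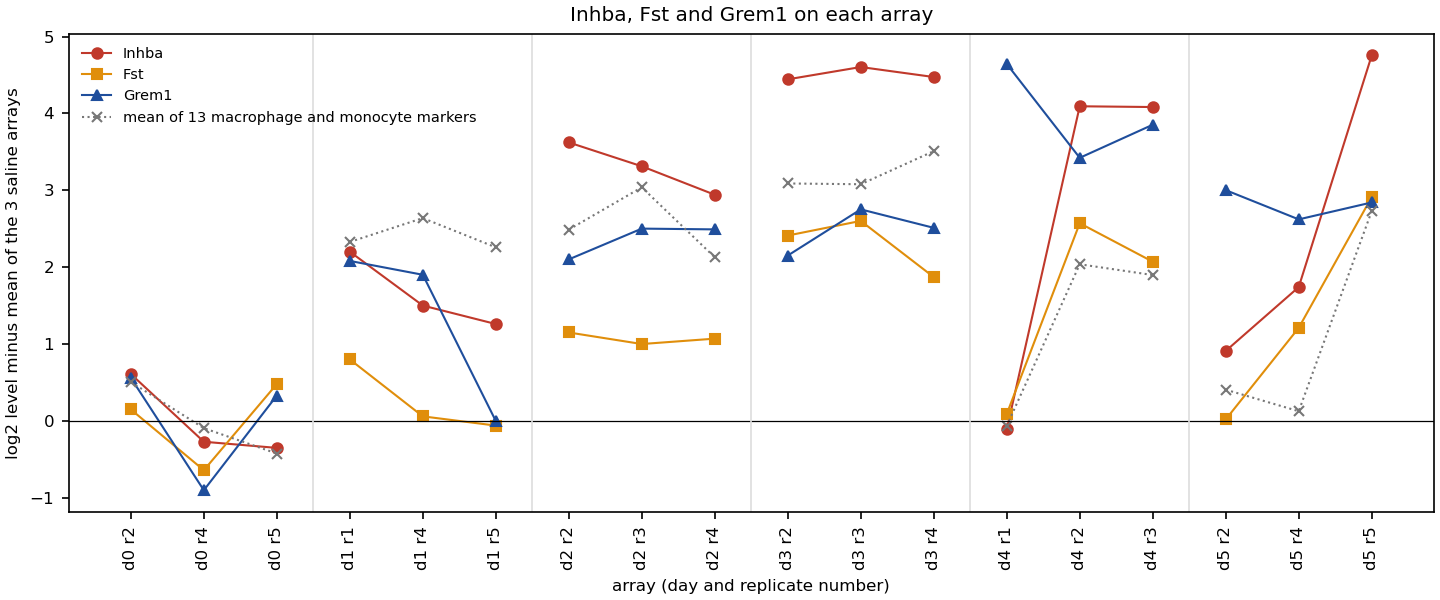
Log2 level of Inhba, Fst and Grem1, and the mean level of the 13 macrophage and monocyte markers, on each of the 18 arrays, each as the difference from the mean of the 3 saline arrays. On day 4 replicate 1 and day 5 replicate 2 the lines of Inhba, Fst and the markers drop, whereas Grem1 has its highest point on day 4 replicate 1. Its log2 level there was 3.33 before the saline mean was subtracted.

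The neighbouring Fst probe printed above gave a like profile on 17 arrays and another value on saline replicate 4. The brighter probe minus the other was -2.80 on that array and at most 0.57 on the rest, with a median of 0.405. The other probe had log2 levels of -0.20, 1.80 and 0.20 on saline day 0, against -0.22, -1.01 and 0.11 for the brighter probe. The other probe alone gave log2 changes of -0.96, -0.39, 0.85, 0.13 and 0.02 on days 1 to 5 (SE 0.64), lower than the brighter probe on every day and with the opposite sign on days 1 and 2. With both probes averaged, the log2 change of Fst was 1.57 on day 3 (adjusted p = 0.042) and -0.34 on day 1, so the day 3 call was kept with a smaller change and the sign on day 1 turned.

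**Figure D3:**
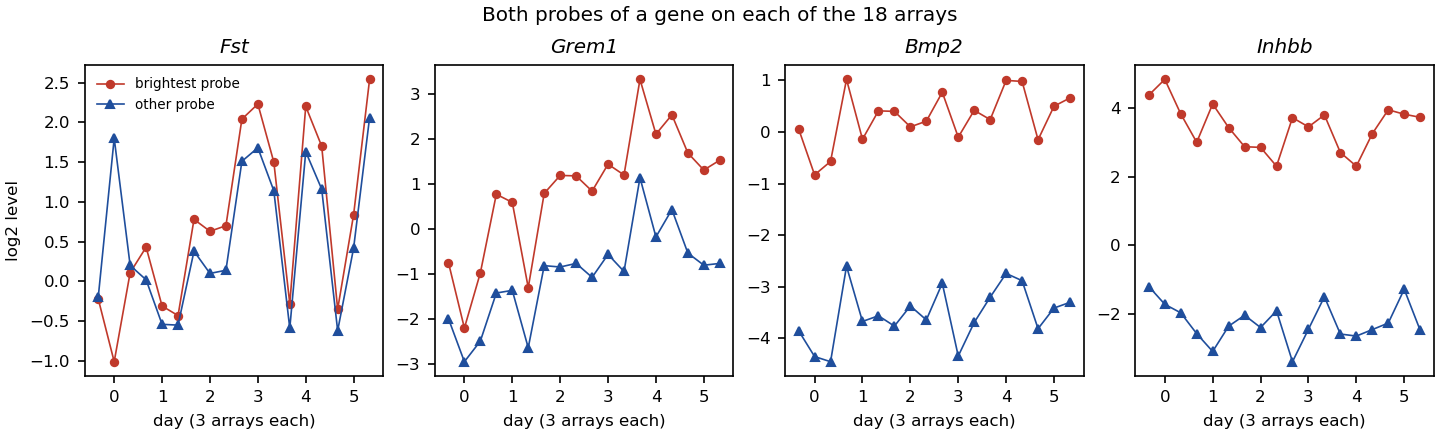
Log2 level of both probes of Inhbb, Fst, Grem1 and Bmp2 on each of the 18 arrays, with 3 arrays per day from day 0 to day 5. The Grem1 probes lie 0.76 to 1.52 apart on the saline arrays and 1.33 to 2.30 apart on the others, and the Fst probes part by 2.80 on saline replicate 4.

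Of the BMP ligand genes, Bmp4 was the member that rose on every day. The log2 level of Bmp4 was -1.34, -2.43 and -2.27 on saline day 0, -0.40, -0.42 and -0.99 on day 1, and -1.28, -0.52 and -0.50 on day 2. It was -1.04, -1.24 and -1.32 on day 3, -0.90, -0.74 and -1.22 on day 4, and -0.61, -0.03 and -0.95 on day 5. All 15 arrays from antibody-treated rats lay above all 3 saline arrays, by 0.02 at the closest. The log2 change of Bmp4 was 1.41 on day 1 (adjusted p = 0.0048), 1.24 on day 2 (adjusted p = 0.0054), 0.81 on day 3 (adjusted p = 0.041), 1.06 on day 4 (adjusted p = 0.01) and 1.48 on day 5 (adjusted p = 0.0024), each with an SE of 0.31. The calls of Bmp4 on days 1, 2 and 5 were kept in 6 of 6 fits that left out 1 array, that of day 3 in 1 of 6 and that of day 4 in 5 of 6. With 12 reference genes as the scale the change was 0.39 on day 3 (adjusted p = 0.25) and 0.47 on day 4 (adjusted p = 0.16).

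Bmp2, like Bmp4 a ligand that gremlin binds, rose on days 1 and 4. Its arrays gave log2 levels of 0.06, -0.83 and -0.57 on saline day 0, 1.02, -0.14 and 0.41 on day 1, and 0.40, 0.10 and 0.21 on day 2. It was 0.77, -0.10 and 0.42 on day 3, 0.24, 1 and 0.98 on day 4, and -0.15, 0.50 and 0.66 on day 5. Days 2 and 4 lay above saline on all their arrays, and the other days overlapped it. The log2 change of Bmp2 was 1.18 on day 4 (SE 0.33, adjusted p = 0.0086) and 0.88 on day 1 (adjusted p = 0.049). It was 0.68, 0.81 and 0.78 on days 2, 3 and 5 (adjusted p = 0.11, 0.058 and 0.068). The day 4 call was kept in 6 of 6 fits that left out 1 array and the day 1 call in 2 of 6; with the reference genes as the scale the day 4 change was 0.60 (adjusted p = 0.15). A dimmer Bmp2 probe gave log2 changes of 0.94, 0.62, 0.57, 1.28 and 0.71 on days 1 to 5.

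Bmp6 rose on the first 3 days. The levels of Bmp6 on the log2 scale were -2.18, -2.01 and -2.35 on saline day 0, -1.16, -0.91 and -1.44 on day 1, and -0.90, -0.92 and -1.86 on day 2. It was -1.01, -1.15 and -1.35 on day 3, -2.78, -2.24 and -2.77 on day 4, and -2.17, -2.15 and -1.23 on day 5. Days 1 to 3 lay above every saline array, and days 4 and 5 overlapped them. The log2 change of Bmp6 was 1.01 on day 1 (adjusted p = 0.014), 0.96 on day 2 (adjusted p = 0.015) and 1.01 on day 3 (adjusted p = 0.0099), with an SE of 0.29. On day 4 it was -0.41 (adjusted p = 0.24) and on day 5 it was 0.33 (adjusted p = 0.35). On the scale of the reference genes none of the first 3 days was called, with changes of 0.57, 0.59 and 0.59 (adjusted p = 0.15, 0.13 and 0.12), and day 4 was called as lower, with -1 (adjusted p = 0.013). Normexp without extreme spots gave 0.41, 0.33 and 0.38 on days 1 to 3 (adjusted p = 0.064, 0.11 and 0.067) and -0.52 on day 4 (adjusted p = 0.015). Leaving out day 1 replicate 4, or day 2 replicate 2 or 3, ended the call of that day (adjusted p = 0.064, 0.059 and 0.068).

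Bmp7, the BMP best known from nephron formation, fell on days 2 and 3. The Bmp7 probe had log2 levels of 0.63, 1.04 and 0.72 on saline day 0, 0.73, 0.69 and 1.05 on day 1, and 0.17, 0.22 and -0.10 on day 2. It was -0.22, -0.07 and 0.30 on day 3, 0.66, 0.07 and 0.17 on day 4, and 0.62, 0.89 and -0.13 on day 5. Every array of days 2 and 3 lay below the saline arrays, and days 1, 4 and 5 overlapped them. Bmp7 fell by 0.70 on day 2 (SE 0.25, adjusted p = 0.032) and by 0.79 on day 3 (adjusted p = 0.017) on the log2 scale. Its log2 change was 0.03 on day 1 (adjusted p = 0.92), -0.49 on day 4 (adjusted p = 0.11) and -0.34 on day 5 (adjusted p = 0.28).

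The Bmp7 calls were lost with the array median as the scale, with changes of -0.33 on day 2 (adjusted p = 0.24) and -0.40 on day 3 (adjusted p = 0.16). Of the fits that left out 1 array, 1 of 6 kept the call on day 2 and 4 of 6 on day 3. Over the 14 markers of podocytes, which are known to express Bmp7, the mean log2 level was 3.28 to 3.41 in saline, 2.83 to 3.19 on day 1, 3.07 to 3.14 on day 2, 2.88 to 3.1 on day 3 and 2.67 to 3.15 on day 4. It lay below the saline range on days 1 to 4. On day 5 it was 3.3, 3.41 and 2.94 on replicates 2, 4 and 5, where Bmp7 had 0.62, 0.89 and -0.13. Over the 13 measured markers of the loop, distal tubule and collecting duct the mean was 1.37 to 1.81 on day 2. It was 1.46 to 1.62 on day 3, against 1.61 to 2.02 in saline, with overlap. The part of podocytes or of these tubule cells in the Bmp7 level was not tested.

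The gremlin gene Grem1 was higher than in saline from day 2 on every array and had its highest level on day 4. Grem1 had log2 levels of -0.75, -2.21 and -0.98 on saline day 0, 0.77, 0.59 and -1.31 on day 1, and 0.79, 1.19 and 1.18 on day 2. It was 0.84, 1.44 and 1.2 on day 3, 3.33, 2.11 and 2.54 on day 4, and 1.69, 1.31 and 1.53 on day 5. Day 1 overlapped the saline arrays through replicate 5, and no later day did. The log2 change was 1.33, 2.37, 2.47, 3.97 and 2.82 on days 1 to 5 (SE 0.48), or 2.51-, 5.15-, 5.53-, 15.7- and 7.06-fold.

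In the order of its means Grem1 ran day 0, day 1, day 2, day 3, day 5 and day 4. Days 1 and 2 did not overlap and neither did days 5 and 4, whereas days 0 and 1, 2 and 3, and 3 and 5 did. Leaving out 1 array at a time moved the day 4 change of Grem1 between 3.52 and 4.25 and the day 1 change between 0.88 and 1.99; the lowest value of each was the fit without saline replicate 4, and the highest day 1 value that without day 1 replicate 5. Without day 1 replicate 1 the day 1 change was 0.95. The other Grem1 probe, printed above, gave log2 changes of 0.68, 1.67, 1.62, 2.95 and 1.78 on days 1 to 5. These were smaller than those of the brighter probe on every day. It put the arrays of day 4 in the same order, with 1.14, -0.18 and 0.43.

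Day 4 replicate 1, on which Inhba lay at the saline level, thus had the highest Grem1 level of the 18 arrays. Within the slide that this array shares with the day 2 arrays, Grem1 was 2.28 higher on it than on the 3 day 2 arrays, and Inhba was 3.40 lower. Other arrays that share a slide allow 3 more comparisons between days. Grem1 was 2.08 higher on the 1 day 1 array than on the 3 saline arrays of slide 1, 1.5 higher on day 3 than on day 1 on slide 2, and 0.31 higher on day 5 than on day 3 on slide 3. Inhba was 2.20 higher on day 1 than on day 0 and 3.14 higher on day 3 than on day 1, and it had a difference of -2 for day 5 minus day 3. Fst was 0.80 higher on day 1 than on day 0 and 2.5 higher on day 3 than on day 1, and it had differences of -0.49 for day 5 minus day 3 and -0.98 for day 4 minus day 2.

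Of a list of 21 other genes of the activin, BMP and GDF branches, nearly all of them ligands, 11 were measured, and 0 of the 11 rose on any day by limma, also at an unadjusted p under 0.05. Of all genes 19.2% to 25.6% were called higher on these days, and 11699 to 13564 had an unadjusted p under 0.05 in either direction. By the test 3, 6, 4, 5 and 3 fell on days 1 to 5, beside 20.7%, 25.1%, 26%, 26.7% and 23.4% of all genes, with a median log2 change of -0.60, -0.64, -0.54, -0.41 and -0.12 over the 11. The 11 include Bmp1, a procollagen proteinase and not a ligand of the superfamily, which was not called on any day (log2 changes of 0.09 to 0.36). Gdf6, a BMP-type ligand of skeletal and eye development, had log2 levels of -2.32, -2.23 and -2.42 on day 2, against -0.17, 0.86 and -0.15 in saline. It fell by 2.5 (5.67-fold, SE 0.37, adjusted p = 0.00057). Gdf2, which encodes the endothelial ligand BMP9, fell on day 5 by 1.93 (adjusted p = 0.00081). Amh, the anti-Müllerian hormone gene, was not well above background on day 2 and was at least 3.30-fold lower there (adjusted p = 0.0014). Bmp8a fell on day 4 by 1.22 (adjusted p = 9e-04), and no call was made for it in the authors' deposited values (adjusted p = 0.063). Bmp10, Gdf3 and Gdf5 had no probe under these names, and Bmp5, Bmp15, Gdf9, Inhbc, Inhbe, Mstn and Nodal did not pass the filter. With the array median as the scale, 0, 1, 1, 3 and 2 of these genes rose on days 1 to 5.

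Of the other secreted antagonists, 9 of 20 were measured, and 1, 2, 2, 2 and 3 rose and 1, 1, 1, 0 and 0 fell on days 1 to 5. Beside this, 19.2% to 25.6% of all genes were called higher on these days and 20.7% to 26.7% lower. Fstl3, a follistatin-like protein that also binds activins, rose on all 5 days, by 1.29, 1.01, 1.58, 1.40 and 1.62 on the log2 scale (SE 0.24), with an adjusted p of 0.00078 on day 5 and of 0.0042 at most. Sostdc1, which encodes the kidney BMP antagonist USAG-1, rose on day 5 by 0.91 (adjusted p = 0.025), a call that was lost with quantile scaling, with the reference genes and without saline replicate 4. Twsg1, a modulator of BMP binding to chordin, fell on day 2 by 0.79 (adjusted p = 0.0014). Cer1, Dand5, Lefty1 and Tll2 had no probe under these names, and Bmper, Chrdl1, Chrdl2, Kcp, Lefty2, Sost and Tll1 did not pass the filter.

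Among the receptor genes more fell than rose, beside 20.7% to 26.7% of all genes called lower on these days. Of 8 of 10 measured, 4, 4, 4, 4 and 5 fell on days 1 to 5, and 1 rose on each of days 4 and 5; the median log2 change was -0.59, -0.59, -0.62, -0.79 and -0.69. The BMP and activin type I receptor gene Acvr1 fell on day 3 by 1.69 (SE 0.32, adjusted p = 0.0011), and the activin type II receptor gene Acvr2a fell on day 3 by 1.53 (SE 0.27, adjusted p = 0.00077) on its brighter probe. The other Acvr2a probe showed no such fall, with log2 changes of 0.06 on day 3, 0.76 on day 2 and 0.69 on day 4. Bmpr1b fell on day 4 by 1.51 (adjusted p = 0.00028), and the activin type I receptor gene Acvr1b fell on day 4 by 1.37 (adjusted p = 0.00098). Without saline replicate 4, on which Acvr1 and Acvr2a had their highest saline level, 3, 4, 4, 4 and 3 receptor genes fell, and with the reference genes as the scale 6, 5, 6, 6 and 5. On that scale most calls of all genes were falls too: 9816 to 12816 genes were called on days 1 to 5, 10.8% to 18.8% of them as higher. Acvr1c and Amhr2 did not pass the filter.

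Of the named pathway genes, the largest fall with a level above background on both days was that of Tgfbr3, the co-receptor betaglycan, which binds TGF-beta, BMPs and inhibin. Its log2 level was -2.22, -2.38 and -2.44 on day 4, against 0.06, 1.32 and 0.75 in saline. Tgfbr3 fell on each of days 1 to 5, with log2 changes of -2.40, -2.56, -2.54, -3.05 and -2.48 (SE 0.43), and with an adjusted p of 0.00021 and a fold of 8.30 on day 4. Of the 5 of 9 co-receptors measured, 2, 2, 3, 2 and 2 fell, and 0, 0, 0, 2 and 1 rose. The share of all genes called lower on these days was 20.7% to 26.7%, and that called higher was 19.2% to 25.6%. Neo1, a co-receptor for repulsive guidance molecules, fell on day 3 by 1.37 (adjusted p = 0.00051), although its probes differed in sign. Hjv, the hemojuvelin gene, had a change of 1 on day 4 (adjusted p = 0.041) with overlapping groups. This call was lost with the reference genes and without saline replicate 4. The decoy receptor gene Bambi rose on day 5 by 0.84 (adjusted p = 0.03), a call lost with quantile scaling, with the reference genes and without saline replicate 4. Rgmb and Tdgf1 had no probe under these names, and Cfc1 and Rgma did not pass the filter.

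Of the Smads and their regulators, 12 of 14 were measured, and 0, 3, 2, 2 and 2 rose and 2, 3, 3, 2 and 3 fell on days 1 to 5. These counts stand beside 19.2% to 25.6% of all genes called higher and 20.7% to 26.7% called lower. Smurf2, a ubiquitin ligase for Smads and receptors, rose on day 3 by 1.66 (adjusted p = 0.0022), with a range of 0.22 to 1.66 over its 3 probes. Smad5, a transducer of BMP signals, fell on day 4 by 1.48 (SE 0.24, adjusted p = 0.00036), the inhibitory Smad6 fell on day 4 by 1.39 (adjusted p = 0.0025), and Zfyve9, which anchors Smad2 and Smad3 at endosomes, fell on day 3 by 0.93 (adjusted p = 0.0014). With the array median as the scale 3, 7, 5, 3 and 5 rose and 1, 1, 2, 2 and 1 fell, and with the reference genes 0, 0, 1, 0 and 0 rose and 6, 5, 6, 9 and 6 fell, so the balance of this list turned with the scaling. Smad3 and Smad9 did not pass the filter.

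**Figure D4:**
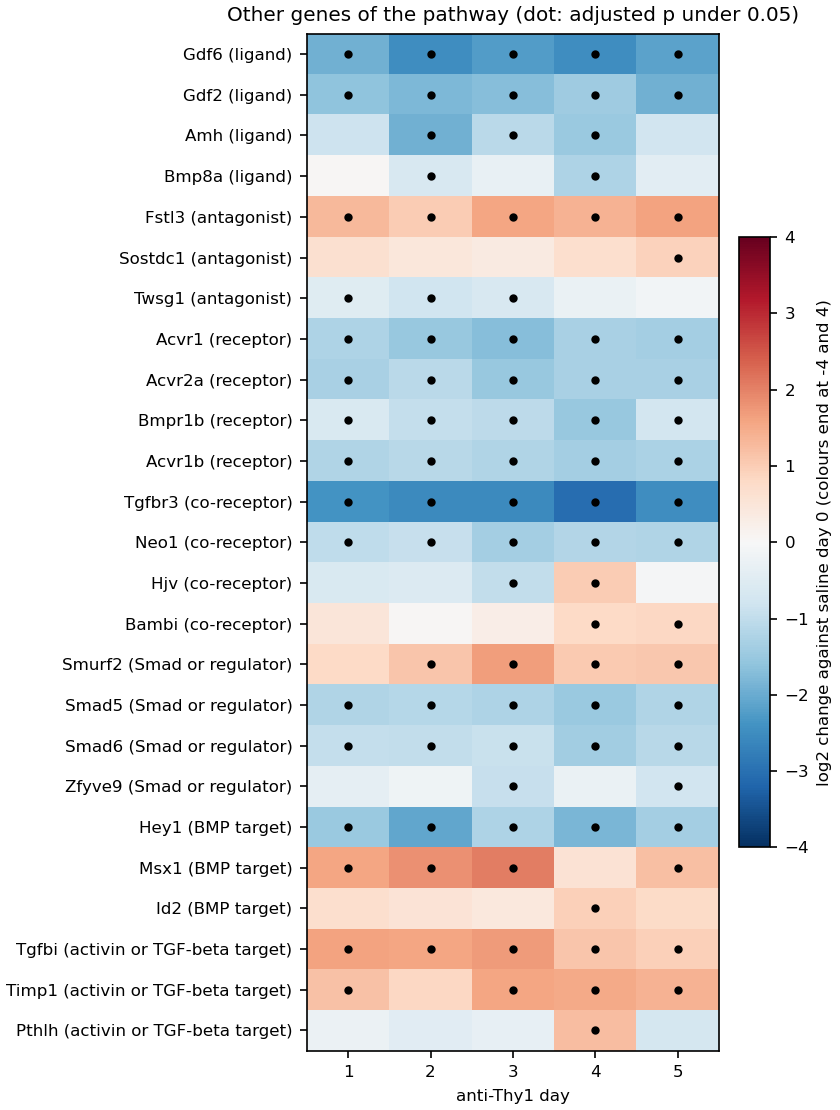
Log2 change of the pathway genes named for the largest called changes of their lists, on anti-Thy1 days 1 to 5 against saline day 0. Colours run from -4 to 4, with a dot where the adjusted p is under 0.05, and genes are grouped by list. Further pathway genes given in the text are not drawn. Tgfbr3 and Gdf6 fall and Fstl3 rises on all 5 days.

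Target genes known from both branches were counted too. Of 9 of 12 BMP targets measured, 1, 1, 2, 2 and 2 rose and 3, 2, 2, 2 and 3 fell on days 1 to 5. Over all genes, 19.2% to 25.6% rose and 20.7% to 26.7% fell by the same test. Msx1, a homeobox gene, rose on day 3 by 2.04 (4.10-fold, SE 0.32, adjusted p = 0.00061), and Hey1, a transcription factor gene also driven by Notch, fell on day 2 by 2.07 (4.21-fold, SE 0.37, adjusted p = 0.0011), where 2 of 3 arrays were above background. Id2, an inhibitor of DNA-binding factors, rose on day 4 by 0.96 (adjusted p = 0.036) on the brightest of its 3 probes, which ranged from 0.19 to 0.96, and without saline replicate 4 the change was 0.58 (adjusted p = 0.2). Without that array 2, 1, 0, 2 and 2 BMP targets fell. Atoh8 had no probe under this name, and Dlx5 and Msx2 did not pass the filter.

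Of the target genes of activin and TGF-beta signalling, 10 of 11 were measured; 4, 2, 4, 5 and 3 rose on days 1 to 5, beside 19.2%, 20.8%, 21.7%, 25.6% and 20.9% of all genes. None fell by limma, also at an unadjusted p under 0.05, with a median log2 change of 0.40, 0.57, 0.31, 0.92 and 0.30. Of all genes 20.7% to 26.7% were called lower on these days, and 11699 to 13564 had an unadjusted p under 0.05 in either direction. Timp1, a metalloproteinase inhibitor, rose on day 3 by 1.59 (adjusted p = 0.0025). Tgfbi rose on day 3 by 1.71 (adjusted p = 0.00061) on its brightest probe, whereas the other probe gave -0.43 and the mean of both gave 0.64 (adjusted p = 0.14). Pthlh had a change of 1.22 on day 4 (adjusted p = 0.038), which most other settings did not call. Without saline replicate 4, 2, 2, 3, 3 and 1 of these targets rose, and on the scale of the reference genes 1, 1, 2, 1 and 0 fell. Cdkn2b did not pass the filter.

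The genes outside the list whose profile was most like that of Inhba over the 18 arrays were Pclaf, Nuf2, Ccnb1, Spc25 and Ccna2, with root mean square differences of 0.47, 0.50, 0.50, 0.52 and 0.53 on the log2 scale after centring; the SD of Inhba itself over the arrays was 1.82. All of these are known as cell-cycle genes. Ccnb1, the cyclin B1 gene, had log2 levels of -1.64, 1.69 and 1.69 on day 4 and -1.85, -0.55 and 2.02 on day 5, against -1.37, -1.51 and -1.92 in saline. It was therefore low on the same late arrays as Inhba.

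Grem1 had no neighbour as close. The smallest differences were those of Tmem100, Prdx1, Egr2, Pappa and Uba3, at 0.74, 0.75, 0.77, 0.79 and 0.82, beside an SD of 1.39 for Grem1. Among the members Bmp4 was nearest to it at 1.13, then Bmp2 at 1.15 and Fst at 1.21, and Inhba was at 1.65.

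Between days that share a scan day, none of the 6 members with a test was called. For day 3 minus day 1, 1 gene of all tested was called (0.00431%), for day 5 minus day 3, 2 genes (0.00863%), and for day 4 minus day 2, 23 genes (0.0992%). At an unadjusted p under 0.05, limma gave 2, 2 and 1 of the 6 members and 3166, 3065 and 3225 of all genes. Bmp6 had a log2 change of -1.37 for day 4 minus day 2 (adjusted p = 0.09), and with the reference genes as the scale it was called there, with -1.59 (adjusted p = 0.038). It was also called without day 2 replicate 4, with -1.69 (adjusted p = 0.037). Fst had a log2 change of 2.03 for day 3 minus day 1 (adjusted p = 0.2), and it was called there only in the fit of the 6 arrays compared (adjusted p = 0.043). For Inhba and Grem1 no test was made, and the values by array above are the description of these days.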

How the data were processed

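RNA of rat glomeruli was measured on 18 Agilent arrays of 1 colour, 3 for each of 6 time points. The intensity values are those the authors deposited from the scanner, background-subtracted and detrended by Feature Extraction 10.7.3.1 per the file headers, with no scaling between arrays. The authors' deposited log2 value table fell into 2 sets, with a median of 5.493 for days 0, 2 and 4 and of 5.313 for days 1, 3 and 5; how it was made is not given in the sources used here, and it served as an alternative within each set.

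From each log2 intensity the 75th percentile of its array, taken over all probes that are not controls, was subtracted; 57 values were missing. Probes were kept where they were well above background on all 3 arrays of at least 1 day (27837 of 41012), and each of the 23188 genes and transcripts was read from its brightest probe. Names came from the files and from RefSeq tables, which gave 12282 of these genes a current symbol. All 18 arrays entered 1 limma fit (lmFit and eBayes, limma 3.58.1, R 4.3.3), with Benjamini-Hochberg adjustment over all genes within a comparison and a threshold of 0.05. The fit was first tested on simulated data. The depth that limits precision is the 3 arrays per day.

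The 8 members, the lists of other pathway genes and the marker lists (mesangial, podocyte, glomerular endothelium, macrophage and monocyte, proximal tubule, loop with distal tubule and collecting duct, parietal epithelium and fibroblast) were chosen with earlier results of these data known. Named were all members, of each pathway list up to 4 called genes with the largest change against day 0 together with its unmeasured genes, and the 5 genes nearest in profile to Inhba and to Grem1; some genes under this rule are not reported here, although the counts of their lists include them. Alternatives were other background corrections, scalings and filters, the mean of a gene's probes, the slide and the replicate number as blocks, the 6 arrays of a comparison alone, the deposited value table, and leaving out each array. The mean log2 level over the 12 measured mesangial markers was 0.20 to 0.61 in saline, -0.63 to -0.08 on day 1 and 0.48 to 1.48 on day 5. That of the 9 measured parietal and fibroblast markers was 1.29 to 1.54 on day 4 and 0.10 to 0.69 in saline, and that of the 12 endothelial markers was 0.29 to 0.68 on day 4 and 1.21 to 1.53 in saline. The markers Lmod1, Pvalb and Lum did not pass the filter.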

Additional observations from a re-analysis of the deposited data

How the results depend on the processing

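Across the alternatives other than leaving out an array, 890 gene values kept direction and call, 142 lost a call, 22 gained one and 34 turned sign, among them the called changes of Bambi and Sostdc1 on day 5; 28 values without a test moved by more than the spread between arrays. The cause was not tested unless stated. Precision was limited by 3 arrays per day.

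The planned normexp background correction was unstable: its background estimate was -910 on day 1 replicate 1 and -798 on day 5 replicate 5, against -7.35 and -3.16 once 8 and 5 spots far below background were left out, an alternative chosen after seeing the data. Planned normexp called 29, 1485, 1544, 2602 and 56 genes and 0, 0, 1, 1 and 0 members on days 1 to 5, and with the rma75 estimate 0, 295, 128, 764 and 1 genes and 0 members on every day. Without the extreme spots 2 members were called on day 3. The other counts of called members that moved were 2 on day 1 with the reference genes, with no filter on dim probes and with only the 6 arrays compared, and 2, 4 and 3 on day 5 with quantile scaling, the array median and the reference genes. The 6 arrays alone called 3306 genes on day 1 and 4813 on day 5. With the slide as a fixed block 0, 1 and 1 genes and 0 members were called on days 1, 3 and 5; days 2 and 4 could not be fitted against day 0, and the deposited value table was used only within its sets.

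The labels do not say what a shared replicate number means. Of 27 same-number pairs of arrays, 8 had a correlation of deviations above 0.1 (median -0.02, range -0.38 to 0.28). Of 108 other pairs 37 did, with a median of 0. The replicate block called 2 members on day 1, 2 on day 2, and 7815 genes on day 4, and gave -0.05 for Bmp7 on day 1, -0.19 for Inhbb and -0.09 for Bmp6 on day 3 minus day 1. It called 0, 0 and 8 genes in the 3 comparisons between days (day 3 minus day 1, day 5 minus day 3, day 4 minus day 2).

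Between days, the genes called for day 3 minus day 1 were 0 with rma75, quantile scaling, the array median, the deposited table and the slide block, 21 without extreme spots, 2 with no filter and 219 with the 6 arrays alone. For day 5 minus day 3 they were 0 with normexp, rma75 and the deposited table, 7 without extreme spots, 1 with quantile scaling, the reference genes, no filter and the 6 arrays alone, and 19 with the slide block. For day 4 minus day 2 they were 0 with normexp and rma75, 130 with the reference genes (Bmp6 among them), 6 with the deposited table, 332 with the slide block and 2 with the 6 arrays alone.

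Leaving out 1 array at a time gave 4617 to 9643, 7138 to 10859, 8374 to 11151, 9318 to 12102 and 6515 to 10565 called genes on days 1 to 5, and 2 to 3, 2 to 5, 2 to 5, 2 to 5 and 1 to 3 called members. Between days it gave 0 to 41, 0 to 919 and 0 to 26 genes.

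Signs turned as follows. On day 1, Bmp7 had -0.10 with normexp, -0.15 with rma75, -0.07 with quantile scaling, -0.41 with the reference genes and -0.06 with the slide block, and -0.08 to 0.15 without 1 array, negative without saline replicate 2, saline replicate 5 or day 1 replicate 5. On day 1, Fst had -0.18 with the reference genes, -0.34 with the mean of its probes and -0.05 to 0.51 without 1 array, negative without saline replicate 4. On day 5, Bambi and Sostdc1 had -0.48 and -0.36 with rma75, Bmp7 had 0.09 with the array median and Bmp6 had -0.14 with the reference genes. For day 3 minus day 1, Bmp2 had 0.06 with normexp, 0.01 with rma75, 0.20 with the slide block, and -0.35 to 0.23 without 1 array, positive without day 1 replicate 1 or day 3 replicate 3. Bmp6 had -0.29 with normexp, -0.13 with rma75, -0.02 without extreme spots, and -0.13 to 0.13 without 1 array, negative without day 1 replicate 5, day 3 replicate 2 or day 3 replicate 3. Inhbb had -0.19 with the slide block and -0.12 to 0.44 without 1 array, negative without day 1 replicate 1. For day 5 minus day 3, Inhbb had -0.32 with normexp and -1.13 with rma75, Grem1 had 0.00 and -0.02 with these, and Bmp2 had 0.01 with the array median, 0.06 with the mean of its probes, and -0.26 to 0.22 without 1 array, at or above 0 without day 3 replicate 2, day 3 replicate 4 or day 5 replicate 2. For day 4 minus day 2, Inhbb had -0.04 with quantile scaling and with the deposited table, -0.14 with the reference genes, -0.19 with the mean of its probes, and -0.17 to 0.30 without 1 array, negative without day 2 replicate 4 or day 4 replicate 3. Bmp7 had -0.01 with the reference genes, Fst and Bmp2 had -0.99 and 0.00 with the slide block, and Inhba had -1.30 to 0.79 without 1 array, positive without day 4 replicate 1.

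The median log2 change of all genes over days 1 to 5 was -0.02 to 0.06. It was 0.38 to 0.49 with the array median as the scale and -0.53 to -0.32 with the reference genes. The share of calls that were higher was 45.3% to 48.9%, against 70% to 75.8% with the array median, 10.8% to 18.8% with the reference genes, 53.1% to 55.9% with quantile scaling, 29.2% to 43.7% with the 6 arrays alone, 34.7% to 40.8% with normexp without extreme spots and 5.36% to 50% with planned normexp.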

Other observations

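Further pathway genes were picked out after their values were seen. Bmpr1a, a BMP type I receptor gene, rose on day 4 by 0.39 on the log2 scale (SE 0.15, adjusted p = 0.037 by limma) and on day 5 by 0.41 (adjusted p = 0.034), while Bmpr2 fell on day 5 by 0.65 (adjusted p = 0.045). Both Bmpr1a calls were lost with quantile scaling and with the reference genes, where no receptor gene was called higher. Smad2, which carries the activin signal, rose by 0.63, 0.60, 0.50 and 0.40 on days 2 to 5 (SE 0.16, adjusted p = 0.0055, 0.0064, 0.014 and 0.048). Its calls on days 2, 4 and 5 were lost with the reference genes as the scale, and that of day 5 also without saline replicate 4. Ccn2, a matrix-associated target of TGF-beta signalling, rose on day 3 by 1.19 (adjusted p = 0.032) and on day 4 by 1.09 (adjusted p = 0.044). The BMP target genes Id1 and Id3 were called on different days: Id1 fell on day 1 by 0.65 (adjusted p = 0.025) and on day 5 by 0.61 (adjusted p = 0.029), and Id3 rose on day 3 by 0.61 (adjusted p = 0.025). Noggin (Nog) and chordin (Chrd), the classical BMP antagonists, were not called on any day, with log2 changes of -0.39 to 0.44 for Nog and -0.01 to 0.64 for Chrd.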
